A study of Homo sapiens with 6 samples.

Results

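The G1/S control genes are the cyclins, cyclin-dependent kinases (CDKs), CDK inhibitors, pocket proteins, E2F factors and MuvB subunits that decide whether a cell leaves G1 and starts to copy its DNA. They were taken as 36 gene symbols by name, a list drawn up with earlier results of these data known although its rule uses no measured value, out of the 27470 genes counted in 22Rv1-ABHD5 cells. All 36 are in the table. CCND2 had 0 counts in all 6 libraries, and the other 35 were tested.

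In a cycling cell, D-type cyclins with CDK4 or CDK6, and then E-type cyclins with CDK2, phosphorylate the pocket proteins RB1, RBL1 (p107) and RBL2 (p130). Hypophosphorylated pocket proteins hold E2F factors, and the phosphorylated forms release them, so that genes for DNA replication and for the next cyclins are transcribed. In resting cells RBL2 or RBL1 joins a repressor E2F, a DP partner and the MuvB core (LIN9, LIN37, LIN52 and LIN54 among its subunits) in the DREAM complex, which keeps many cell cycle genes low. In prostate cancer cells CCND1 and the E2F factors are known for their link to proliferation.

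To ask which genes respond to ABHD5, the coactivator of the triglyceride lipase ATGL, the study profiled cells with and without its induction. The cells are 22Rv1, a human castration-resistant prostate cancer line, infected with a lentiviral vector that carries ABHD5 behind a doxycycline (Dox)-inducible promoter and selected with G418; whether they are 1 clone is not stated. All 6 libraries come from these transgenic cells after 48 h: 3 without Dox (labelled Control) and 3 with Dox (labelled overexpressing ABHD5, or OE). The Dox dose of these cultures is not given in the sources used here, no parent cells with Dox are among the libraries, and effects of Dox and ABHD5 therefore cannot be told apart. Nothing states that the replicates were separate cultures, so p-values measure the spread between these libraries only.

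RNA was read from the 3ʹ ends of polyadenylated transcripts, with 3394672 to 5988151 reads on genes per library without Dox and 3460471 to 7271771 with Dox. Levels are given as CPM, the reads of a gene scaled to a common library size, after TMM normalization, a scaling that balances the bulk of genes between libraries. ABHD5, on chromosome 3 of hg38 from 43690108 to 43734371, had 63.5, 58.0 and 62.8 CPM without Dox and 125.9, 130.8 and 91.7 CPM with Dox, so that the groups did not overlap and every library matched its label. Whether these 3ʹ counts include the transcript of the vector was not tested, so the size of the induction is not read from them. Of 10 prostate epithelial markers 10 were detected, with a summed level of 1565 to 1671 CPM without Dox and 991 to 1106 CPM with Dox, and 6 of them fell. Of 10 stromal, endothelial and immune markers 7 were detected, with a summed level of 6.82 to 11.2 CPM without Dox and 7.24 to 10.6 CPM with Dox, 1 of the 2 that could be tested was higher (COL1A1, with overlapping groups), and the endothelial genes PECAM1 and VWF and the T cell gene CD3E were at 0. Reads that fell on no gene were 32.5% to 34.6% without Dox and 35.6% to 39.5% with Dox. The part of these differences in the results below was not tested.

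With Dox the G1/S genes moved mainly down. Of the 35 members tested, 14 fell and 2 rose (edgeR's quasi-likelihood test, p under 0.05 after Benjamini-Hochberg adjustment over 12233 genes), while 19 did not pass. Over all genes tested, 25.5% passed, 13.7% lower and 11.9% higher, whereas 40% of the members were lower and 5.71% higher. The median log2 fold change of the 35 members was -0.38, and that of all genes tested was 0.02. The genes that fell were the activator E2Fs E2F1, E2F2 and E2F3, the atypical E2Fs E2F7 and E2F8, the kinase gene CDK2, the kinase activator CDC25A, the CDK subunit CKS1B, the D-type cyclin CCND1, the INK4 inhibitors CDKN2C and CDKN2D, the pocket protein RBL1 and the MuvB subunits LIN9 and LIN54. Those that rose were RBL2 and the E2F partner TFDP2. Scaled by library totals alone, which moved the median of all genes to 0.14, 12 members were lower and 4 higher. In a mixed culture, fewer cells in a phase that uses a gene and less of its RNA in each cell cannot be told apart.

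**Figure D1:**
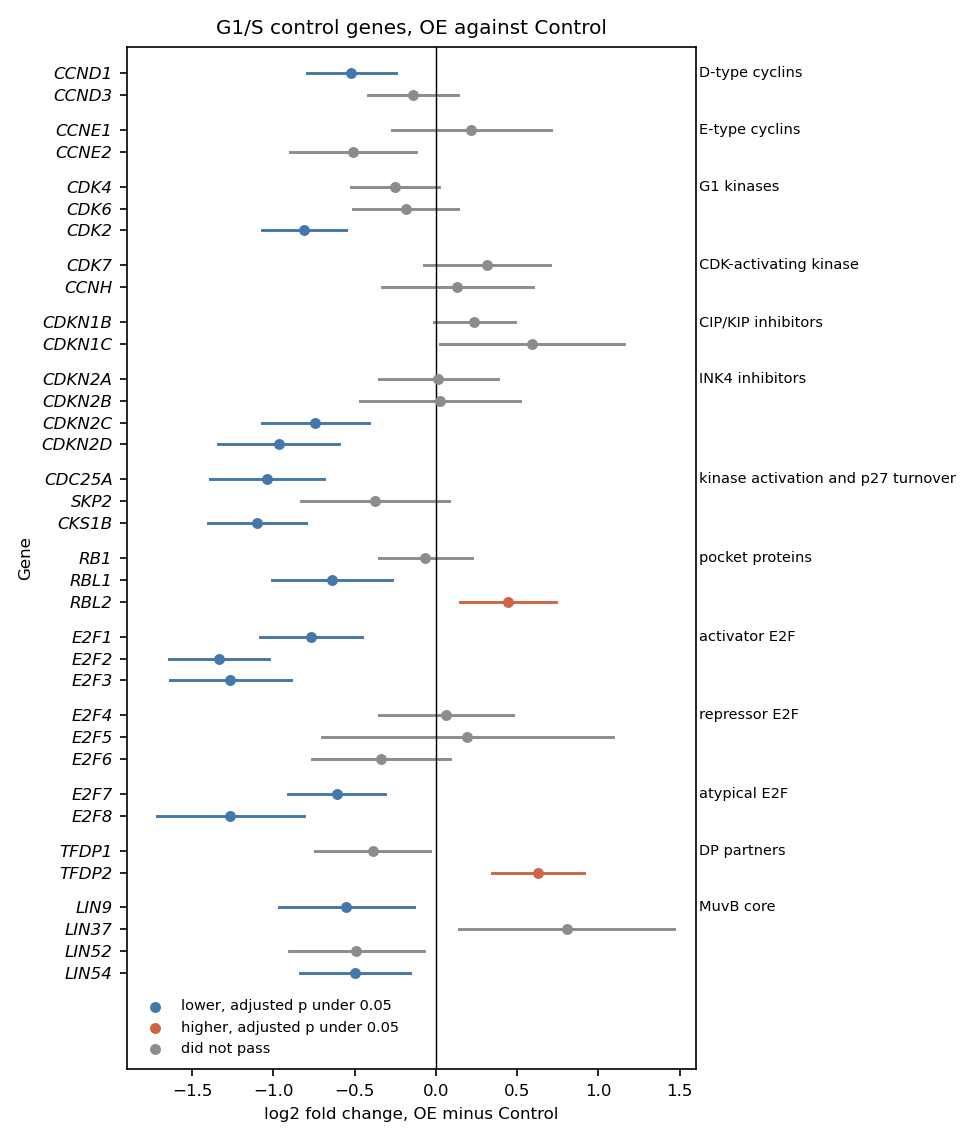
Log2 fold change (OE minus Control, horizontal axis) of the 35 tested G1/S control genes, grouped by role. Lines are 95% intervals derived from the statistic of the quasi-likelihood test. The 14 genes that fell are blue, the 2 that rose orange and the 19 that did not pass grey; E2F2, E2F3 and E2F8 lie farthest to the left.

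Counted by library rather than by test, 15 members had every library with Dox below every library without it and 5 had every library above. Among all genes tested, 39.5% were separated in this way, 20.5% below and 19.0% above. Of the members separated downward, 3 did not pass the test (CCND3, CCNE2 and CDK4), and of those separated upward 3 did not (CDKN1B, CDKN1C and LIN37). LIN9 and LIN54 passed with overlapping groups.

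The activator E2Fs, which recruit transcription of the replication genes when free of pocket proteins, all fell, E2F2 and E2F3 with the lowest log2 fold changes of the 35 members. E2F2, on chromosome 1 from 23506438 to 23531233, had 75.7, 92.1 and 73.7 CPM without Dox and 33.1, 28.9 and 33.0 CPM with Dox. Every library with Dox was below every library without it, and the gene fell 2.52-fold (log2 -1.34, standard error 0.15, adjusted p = 3.341e-06). E2F3, on chromosome 6 from 20401879 to 20493714, had 50.4, 55.2 and 53.2 CPM without Dox and 22.2, 28.1 and 17.1 CPM with Dox. Its libraries without Dox lay close together, while replicate 3 with Dox was the lowest and replicate 2 the highest of the treated group (log2 -1.27, standard error 0.18, adjusted p = 4.461e-05). E2F1, on chromosome 20 from 33675477 to 33686385, had 123, 110.1 and 89.0 CPM without Dox and 62.0, 54.0 and 71.1 CPM with Dox. It fell least of the 3 genes, by 0.77 on the log2 scale (standard error 0.15, adjusted p = 0.000991), and its groups did not overlap.

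These E2F genes are themselves known E2F targets, so their promoters are shown with RBL1 and CDC25A, the other members that fell and hold an E2F word, and with CKS1B, which holds a CHR word; RBL2, which rose, is given for contrast. The sequences are the 150 bases before the transcription start that RefSeq lists (GRCh38.p14, which shares coordinates with hg38), 5ʹ to 3ʹ on the strand of the gene. Capitals mark matches, on either strand, to the E2F words TTTCCCGC, TTTCGCGC, TTTGCCGC and TTTGGCGC or to the CHR word TTTGAA, the element through which MuvB is known to bind late cell cycle genes.
E2F1 (chr20:33686386-33686535, minus strand): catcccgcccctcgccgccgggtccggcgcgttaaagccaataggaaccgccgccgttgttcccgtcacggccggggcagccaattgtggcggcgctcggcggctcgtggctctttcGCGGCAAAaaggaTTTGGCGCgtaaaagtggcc
E2F2 (chr1:23531234-23531383, minus strand): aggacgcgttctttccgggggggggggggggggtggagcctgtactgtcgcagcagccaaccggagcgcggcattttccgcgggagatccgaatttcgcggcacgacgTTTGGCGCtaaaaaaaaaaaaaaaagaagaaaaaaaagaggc
E2F3 (chr6:20401729-20401878, plus strand): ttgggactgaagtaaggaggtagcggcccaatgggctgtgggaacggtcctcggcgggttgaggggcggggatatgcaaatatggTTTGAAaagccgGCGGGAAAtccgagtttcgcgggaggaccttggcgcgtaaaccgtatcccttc
RBL1 (chr20:37095998-37096147, minus strand): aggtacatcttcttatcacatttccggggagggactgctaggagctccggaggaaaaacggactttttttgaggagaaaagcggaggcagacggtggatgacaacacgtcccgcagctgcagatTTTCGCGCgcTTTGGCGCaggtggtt
CDC25A (chr3:48188418-48188567, minus strand): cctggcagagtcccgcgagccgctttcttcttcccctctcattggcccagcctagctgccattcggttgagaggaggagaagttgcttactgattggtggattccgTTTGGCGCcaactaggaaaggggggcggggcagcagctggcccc
CKS1B (chr1:154974531-154974680, plus strand): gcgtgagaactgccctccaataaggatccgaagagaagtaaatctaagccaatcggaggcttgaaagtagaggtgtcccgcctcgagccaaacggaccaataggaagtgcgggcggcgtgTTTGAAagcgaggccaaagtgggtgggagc
RBL2 (chr16:53434321-53434470, plus strand): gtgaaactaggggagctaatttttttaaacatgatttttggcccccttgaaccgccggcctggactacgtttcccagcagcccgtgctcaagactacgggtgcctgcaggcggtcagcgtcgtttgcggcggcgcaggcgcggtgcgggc

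E2F1 and RBL1 each hold 2 E2F words, which start 33 and 20 bases before the E2F1 start and 26 and 16 bases before that of RBL1. E2F2, E2F3 and CDC25A hold 1 each, and E2F3 also a CHR word. Promoters were matched by symbol for 29 of the 36 members, and 7 of the 29 hold an E2F word within the 250 bases before the start, against 2.77% of 34943 promoters and 4.67% of the 9332 promoters of tested genes. Of the 11 members with a promoter that fell, 5 hold an E2F word and 3 a CHR word (CKS1B, E2F3 and LIN54, the last not shown). CDKN2C, CDKN2D, E2F7 and LIN9 fell and, like RBL2, hold neither word. Among the 16 that did not pass, 2 hold an E2F word (TFDP1 and LIN52) and 0 a CHR word, and neither word is in the windows of RBL2 and TFDP2. The CHR word is in 13.4% of all promoters and 8.1% of those of tested genes. For each symbol 1 listed start was used, and it can lie inside the gene. The RB1 window is chr13:48476300-48476449, while the gene spans 48303744 to 48599436. The RBL2 window shown for contrast also lies inside its gene, which starts at 53433977. So do the windows of CCND3, CDK4, CDKN1B, LIN9 and LIN54. Starts elsewhere in a gene were not searched, so a window without a word does not speak for them. A match is a description of the letters, not evidence of binding. No entry was matched for CCND1, CCND2, CCNE2, CDK2, CDKN1C, E2F5 and E2F8.

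The repressor E2Fs, which work in complexes with the pocket proteins or, for E2F6, with Polycomb proteins, did not pass the test, and 0 of the 3 had an unadjusted p under 0.05 or passed with DESeq2. E2F4 had 20.4, 24.2 and 29.3 CPM without Dox and 26.97, 19.5 and 30.2 CPM with Dox, and the groups overlapped. Its log2 fold change was 0.06 with a 95% interval of -0.35 to 0.47, so that a fall of the size of that of E2F2 lay outside the interval. E2F6 had a log2 fold change of -0.34 (-0.76 to 0.08). E2F5, with 12 to 14 counts per library without Dox and 12 to 22 with Dox, had an interval from -0.70 to 1.09, and a change of its log2 level within that interval was not detectable at this depth.

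The atypical E2Fs bind DNA without a DP partner and are known to repress E2F targets late in S phase. E2F8 had 27.9, 22.3 and 30.9 CPM without Dox and 11.5, 14.5 and 8.93 CPM with Dox. Every library with Dox was below every library without it (log2 -1.26, standard error 0.22, adjusted p = 0.000318). E2F7 averaged 53.8 ± 1.59 CPM without Dox and 35.2 ± 2.25 CPM with Dox (SD, n = 3 each; log2 -0.61, adjusted p = 0.00394), again without overlap.

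The DP proteins, which pair with the typical E2Fs to bind DNA, are TFDP1 and TFDP2, of which TFDP2 rose and TFDP1 did not pass. TFDP2, on chromosome 3 from 141944428 to 142149544, had 65.8, 68.5 and 61.1 CPM without Dox and 107.2, 107.4 and 87.6 CPM with Dox. Its groups did not overlap, the rise was 1.54-fold (log2 0.63, standard error 0.13, adjusted p = 0.00215), and it passed in each of 14 alternative analyses. TFDP1 had 63.2, 49.0 and 61.3 CPM without Dox and 44.8, 34.0 and 52.7 CPM with Dox, with overlapping groups and a log2 fold change of -0.39 that did not pass (adjusted p = 0.0987), while it passed in 2 of 14 alternatives, 1 of them without replicate 3 with Dox (adjusted p = 0.0256).

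**Figure D2:**
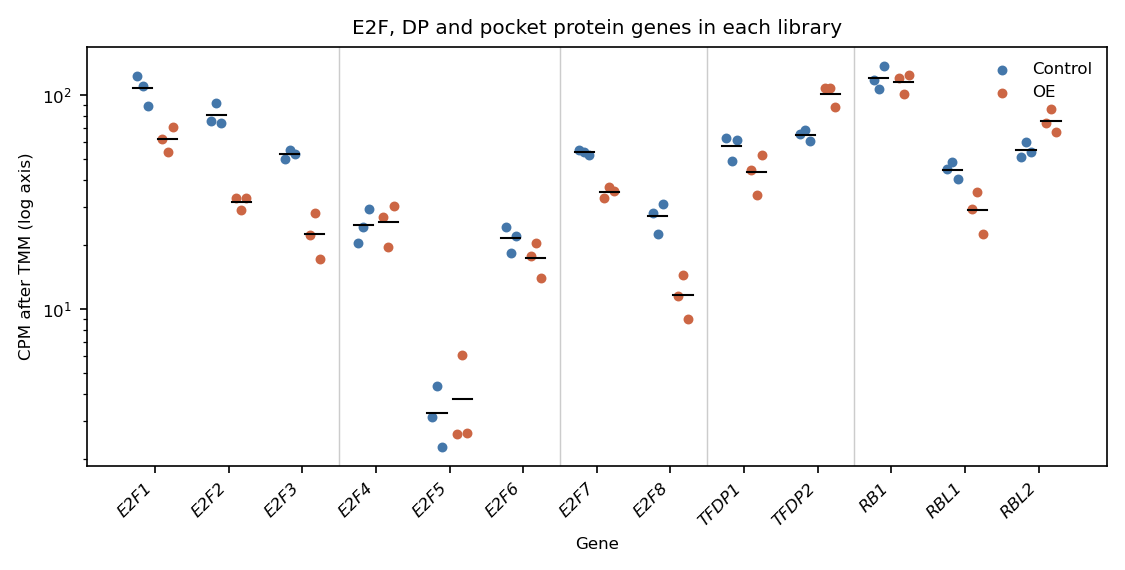
CPM after TMM (vertical log axis) of the E2F, DP and pocket protein genes in each library; points are the 3 Control (blue) and 3 OE (orange) libraries and bars their means. The points of E2F1, E2F2, E2F3, E2F7, E2F8 and RBL1 separate downward and those of TFDP2 and RBL2 upward, while those of E2F4, E2F5, E2F6 and RB1 overlap.

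Of the pocket proteins, RBL1 fell and RBL2 rose. RBL1, on chromosome 20 from 36996349 to 37095997, is an E2F target that is known to be made mainly in cycling cells, and had 45.2, 48.4 and 40.5 CPM without Dox and 29.4, 35.3 and 22.5 CPM with Dox. Its fall was 0.64 on the log2 scale (standard error 0.18, adjusted p = 0.0126). RBL2, on chromosome 16 from 53433977 to 53491648, is the pocket protein known to predominate in resting cells, and had 51.5, 60.5 and 54.3 CPM without Dox and 74.2, 85.7 and 67.0 CPM with Dox. All 3 libraries with Dox were above all 3 without it (log2 0.44, standard error 0.14, adjusted p = 0.0276). RB1, the retinoblastoma gene, had 119.9 ± 15.4 CPM without Dox and 114.8 ± 12.4 with Dox (SD, n = 3 each), with overlapping groups and an interval of the log2 fold change from -0.35 to 0.22. RBL2 did not pass without replicate 1 or 3 without Dox or replicate 1 or 2 with Dox (adjusted p up to 0.140), and RBL1 did not without replicate 3 with Dox (0.0567); both kept their direction. The 3ʹ end of RBL2 overlaps that of AKTIP on the opposite strand, whose log2 fold change was -0.30 (adjusted p = 0.517).

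Of the MuvB core, which binds the CHR element and serves both DREAM and the later activating complex with MYBL2, LIN9 and LIN54 were lower. LIN54, the subunit that contacts DNA, had 69.2, 54.6 and 73.0 CPM without Dox and 56.5, 42.0 and 41.5 CPM with Dox, so that the groups overlapped although the test passed (log2 -0.50, standard error 0.16, adjusted p = 0.0299). LIN9 had 40.2, 31.3 and 52.5 CPM without Dox and 34.4, 22.0 and 28.8 CPM with Dox (log2 -0.55, standard error 0.20, adjusted p = 0.0488). LIN52, the subunit that docks RBL1 or RBL2, had a log2 fold change of -0.49 (adjusted p = 0.0784), which passed only without replicate 3 without Dox (0.0303). LIN37, which is needed for repression by DREAM, had 3.396, 6.51 and 6.46 CPM without Dox and 10.9, 11.97 and 6.83 CPM with Dox, which did not overlap, and a log2 fold change of 0.81 that did not pass (adjusted p = 0.0689). It passed in 3 of 14 alternatives (smallest adjusted p 0.0191), and a readthrough gene on its own strand shares its 3ʹ end. The calls of LIN9 and LIN54 were the least stable of the set: LIN9 passed in 5 and LIN54 in 9 of 14 alternatives, and each failed under library totals alone and without replicate 1 or 3 without Dox or replicate 2 or 3 with Dox (largest adjusted p 0.282 and 0.120).

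Among the cyclins, CCND1, which couples growth signals to CDK4 and CDK6, fell. CCND1, on chromosome 11 from 69641156 to 69654474, had 5321, 5788 and 5354 CPM without Dox and 4082, 3861 and 3537 CPM with Dox. The groups did not overlap and the fall was 1.43-fold (log2 -0.52, standard error 0.13, adjusted p = 0.00669); CCND1 passed in each of 14 alternatives. Its 3ʹ end overlaps LTO1 (ORAOV1 in the table) on the opposite strand, with a log2 fold change of -0.15 (adjusted p = 0.686). CCND3 had 61.4 ± 1.67 and 55.7 ± 1.71 CPM (SD, n = 3 each); its log2 fold change of -0.14 had an interval from -0.42 to 0.13 and an adjusted p of 0.467. CCND2, at 0 counts, was below the level that 3 counts give, 0.394 to 0.930 CPM in a library. The E-type cyclins, which activate CDK2 at the start of S phase, did not pass; 1 of the 2 had an unadjusted p under 0.05 and 0 passed with DESeq2. CCNE2 had 32.7, 31.0 and 28.3 CPM without Dox and 22.0, 26.4 and 17.1 CPM with Dox, and its log2 fold change of -0.51 missed the threshold (adjusted p = 0.0516), while it passed in 3 of 14 alternatives, among them without replicate 2 with Dox (adjusted p over all alternatives 0.0158 to 0.203). CCNE1, on the other side of 0, had 8.88, 10.2 and 8.55 CPM without Dox and 11.3, 9.74 and 10.8 CPM with Dox (log2 0.22, interval -0.27 to 0.71).

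Of the kinase partners of these cyclins, CDK2 fell and CDK4 and CDK6 did not pass. CDK2, on chromosome 12 from 55966781 to 55972789, had 422, 358 and 359 CPM without Dox and 207, 215 and 227 CPM with Dox. The lowest untreated library stood well above the highest treated one (1.75-fold lower, log2 -0.81, standard error 0.12, adjusted p = 0.000109). CDK4 had 152, 173 and 143 CPM without Dox and 135, 116 and 141 CPM with Dox, with a log2 fold change of -0.25 (interval -0.52 to 0.02, adjusted p = 0.168). CDK6 had -0.19 (interval -0.51 to 0.14) and overlapping groups. CDK7 and CCNH form the CDK-activating kinase, which phosphorylates the activation loop of the other kinases; their log2 fold changes were 0.31 and 0.13 (adjusted p = 0.232 and 0.706) and their groups overlapped. MNAT1, the assembly factor of the same kinase and outside the 36 symbols, rose by 0.58 on the log2 scale (adjusted p = 0.00337).

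Of the 4 INK4 inhibitors, CDKN2C and CDKN2D fell and CDKN2A and CDKN2B did not pass. CDKN2D (p19), an inhibitor of CDK4 and CDK6, had 122.5, 96.8 and 154 CPM without Dox and 79.2, 50.6 and 61.5 CPM with Dox, a fall of 0.97 on the log2 scale (standard error 0.18, adjusted p = 0.000573). CDKN2C (p18), of the same INK4 family and a known E2F target, had 50.4, 67.0 and 49.7 CPM without Dox and 34.8, 31.2 and 33.2 CPM with Dox (log2 -0.74, adjusted p = 0.00199). In both genes all libraries with Dox were below all libraries without it. CDKN2A, which encodes p16 and, from another reading frame over a shared 3ʹ end, ARF, had 46.2, 42.8 and 52.0 CPM without Dox and 52.6, 33.7 and 55.3 CPM with Dox. Its log2 fold change was 0.01 with an interval from -0.35 to 0.38, and that of CDKN2B (p15) was 0.03 with an interval from -0.47 to 0.52. The 3ʹ counts do not separate p16 from ARF.

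The CIP/KIP inhibitors, which bind CDK2 complexes, did not pass; 1 of the 2 had an unadjusted p under 0.05 and 0 passed with DESeq2. CDKN1B (p27) had 197, 181 and 199 CPM without Dox and 233, 215 and 232 CPM with Dox, which did not overlap, and a log2 fold change of 0.24 (interval -0.01 to 0.49, adjusted p = 0.158; 0.0322 under library totals alone). CDKN1C (p57) had 5.22, 4.96 and 6.28 CPM without Dox and 8.05, 8.07 and 8.93 CPM with Dox (log2 0.59, interval 0.03 to 1.16, adjusted p = 0.118). CDKN1A (p21), the third gene of this family and not among the 36 symbols, rose from 142.7 ± 6.26 to 228 ± 15.8 CPM (SD, n = 3 each; log2 0.68, adjusted p = 0.000472).

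SKP2 and CKS1B are the receptor and cofactor through which the SCF ubiquitin ligase recognises p27 for destruction, and CDC25A removes the inhibitory phosphates from CDK2. CKS1B, on chromosome 1 from 154974653 to 154979251, had 428, 330.3 and 447 CPM without Dox and 191, 162 and 209.8 CPM with Dox. It fell 2.14-fold (log2 -1.10, standard error 0.14, adjusted p = 2.275e-05); 7 pseudogenes carry its name in the annotation, so reads may be shared with copies. CDC25A, on chromosome 3 from 48157146 to 48188417, had 47.0, 37.2 and 49.6 CPM without Dox and 24.4, 20.3 and 20.9 CPM with Dox, a 2.05-fold fall (log2 -1.04, standard error 0.17, adjusted p = 0.000182). Both genes were separated without overlap and passed in each of 14 alternatives. SKP2 had 31.9, 22.9 and 38.8 CPM without Dox and 22.4, 17.8 and 31.3 CPM with Dox, with overlapping groups and a log2 fold change of -0.38 (adjusted p = 0.221), which passed only without replicate 3 with Dox (0.0393).

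Ratios of 2 genes within a library do not depend on how libraries are scaled, so 9 such ratios were compared as log2 ratios of counts. The log2 ratio of RBL2 to RBL1 was 0.19, 0.32 and 0.42 without Dox and 1.33, 1.27 and 1.57 with Dox, a difference of 1.08 with no overlap. The log2 ratio of TFDP1 to TFDP2 was -0.06, -0.48 and 0.00 without Dox and -1.26, -1.66 and -0.73 with Dox, a difference of -1.04. That of E2F1 to E2F4 moved by -0.82, CCNE1 to CCNE2 by 0.71, CDK2 to CDK4 by -0.55 and CCND1 to CCND3 by -0.38, each without overlap. These 6 ratios had an exact permutation p of 0.1 (two-sided, adjusted 0.15), which is the smallest that 3 against 3 libraries allow, so none could pass 0.05. The ratios of CDKN1B to SKP2, E2F2 to E2F3 and CDKN2C to CDKN2D overlapped between the groups (exact permutation p = 0.2, 0.8 and 0.6, adjusted p = 0.257, 0.8 and 0.675).

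**Figure D3:**
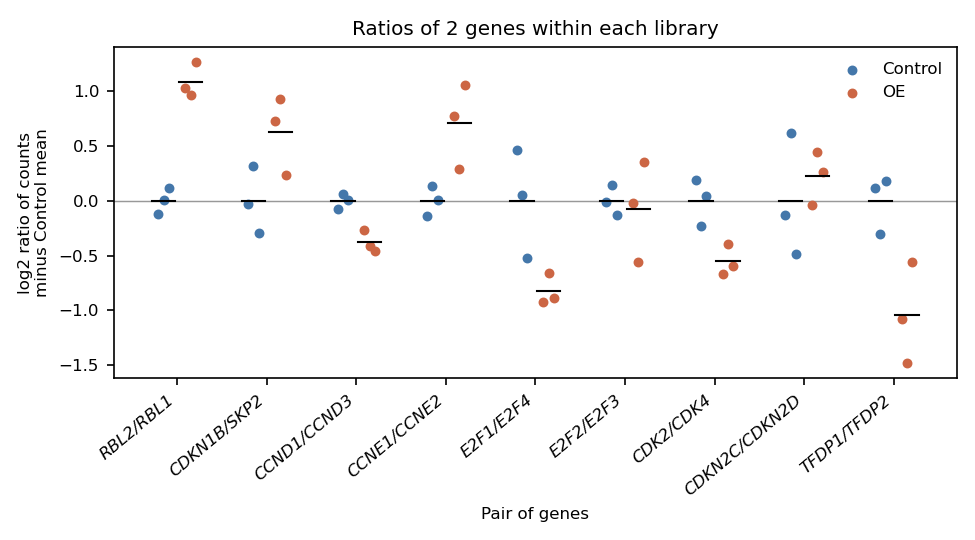
Log2 ratio of the counts of 2 genes in each library minus the mean of that ratio in the Control libraries (vertical axis), for 9 pairs; points are the 3 Control (blue) and 3 OE (orange) libraries and bars their means. The RBL2/RBL1 points with Dox lie 1.08 above the Control mean on average and the TFDP1/TFDP2 points 1.04 below it.

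Other genes of the same step and of the later phases were read from lists. Of 23 other G1/S control genes, 20 were tested, 8 fell, 3 rose and 9 did not pass, with a median log2 fold change of -0.31. That is 40% lower and 15% higher, against 13.7% and 11.9% of all genes tested, so the share that rose was near the background. The 8 that fell were CCNA2, CDK1, CDC25B, CDC25C, CKS2, FBXO5, MYBL2 and CDKN3, many of which act after G1/S. FBXW7, CUL1, SKP1, RBX1, FZR1, RBBP4, MYBL1, WEE1 and CCNG1 did not pass. The share that fell therefore does not speak for G1/S control alone. Among those that fell, the smallest adjusted p belonged to CDKN3, a CDK phosphatase (-1.30), CKS2, the paralog of CKS1B (-1.29), and CDC25B, a mitotic paralog of CDC25A (-1.04). Those that rose were CDKN1A, MNAT1 and CCNG2, a cyclin known from growth arrest (0.75; adjusted p = 0.0246, and up to 0.133 over the alternatives, past 0.05 with DESeq2 and without replicate 1 or 2 without Dox or replicate 1 or 3 with Dox). CCNA1 and CDK3 were at 0 counts in all libraries, and PKMYT1 did not pass the filter.

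Of 36 S phase genes known as E2F targets, 35 were tested, 29 fell (82.9%, against 13.7% of all genes tested) and 0 rose (11.9% of all genes), with a median log2 fold change of -0.73. At an unadjusted p under 0.05 the count of higher genes was also 0, as it was with DESeq2, in this list and in the next. MCM10 (-1.06), GINS4 (-1.14) and CDT1 (-0.98), all of the replication origin, had the smallest adjusted p, and POLA1, the catalytic subunit of the primase-polymerase, had 0.04 and did not pass. Of 25 G2/M genes known as targets of DREAM, 25 were tested, 23 fell (92%, against the same 13.7%) and 0 rose, with a median of -0.94; AURKB (-1.37), BIRC5 (-1.13) and PLK1 (-1.46), which act in mitosis, had the smallest adjusted p.

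**Figure D4:**
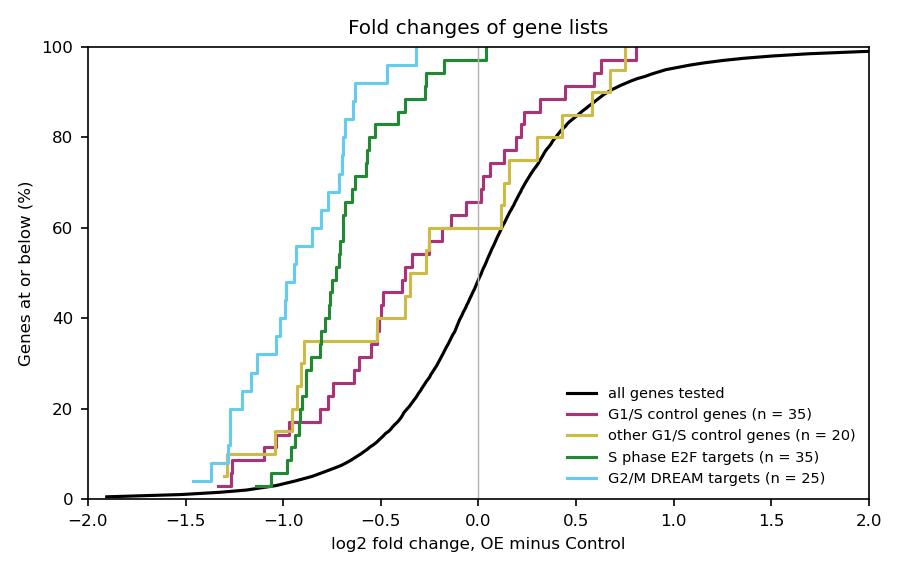
Share of genes (vertical axis, percent) at or below each log2 fold change (OE minus Control, horizontal axis) for all genes tested and for 4 gene lists. The S phase and G2/M lists lie to the left of 0 apart from 1 S phase gene, POLA1, with medians of -0.73 and -0.94, and the G1/S control genes span -1.34 to 0.81 around a median of -0.38.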

How the data were processed

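Total RNA for 6 libraries was made into 3ʹ libraries (the QuantSeq FWD kit per the labels, the REV kit per the paper's methods). The authors demultiplexed with CASAVA 1.8.2, ran FastQC, used STAR with hg38, and deposited raw counts by gene symbol. HTSeq also stands in the submitters' processing notes; which annotation was used, and whether strand was, is not given in the sources used here. The authors also deposited a normalized signal per library, by a method not stated, which served as an alternative (limma on log2(value + 1); 27 names that were repeated in a file or missing from one were left out). Rows naming no gene were left out: ambiguous reads were 3.05% to 3.37% and reads on no gene are given above.

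Counts were tested with edgeR 4.0.16 (TMM, filterByExpr, quasi-likelihood test, adjusted p under 0.05) in R 4.3.3, and DESeq2 1.42.0 and limma 3.58.1 served as alternatives. The fit was tested on simulated data. Replicates differed by more than sampling noise (chi-square per degree of freedom 4.07 to 11.3), so each library was 1 sample. A level of 3 counts was taken as the limit of detection, which covers counting error only. Ratios had 0.5 counts added to each gene. Coordinates are those of GENCODE 44, and a 3ʹ overlap means another gene's exon within 500 bases of the end of a gene. Beside the overlaps given above, CCNE2 has one with INTS8, CDK4 with TSPAN31 and E2F5 with RBIS (counted as C8orf59), each on the opposite strand. The log2 fold changes of these partners were -0.11, 0.10 and 0.19, and none passed. Beside CKS1B, other members have named pseudogenes with which reads may be shared. These are E2F6 (4), TFDP1 (3), E2F3 and CCND3 (2 each), and CCND2, CDK4, CDK7, CCNH, SKP2 and E2F4 (1 each). The members, lists, motifs and ratios were chosen with earlier results of these data known. All 36 symbols, ABHD5 and CDKN1A are named, and of each other list up to 3 genes a direction by smallest adjusted p; other genes were named after their values were seen.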

Additional observations from a re-analysis of the deposited data

How the results depend on the processing

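The 14 alternatives were other scalings and filters, DESeq2, the deposited normalized values, leaving out any 1 library, and a replicate block. The number of members called stayed within 1.5 times of 16 in each, from 13 to 18, as did the count over all genes (2181 to 3537, main 3125). The median of the members was -0.25 under library totals alone and -0.32 with upper-quartile normalization, where the scaling itself moved all genes, and -0.48 to -0.26 with 1 library left out. Library totals alone raised the share of calls that were higher over all genes from 46.4% to 65.7%. Differences of the ratio of E2F2 to E2F3 ran from -0.29 to 0.16 (without replicate 2 with Dox) and of CDKN2C to CDKN2D from -0.018 (without replicate 3 without Dox) to 0.53 with 1 library left out, so their direction was not settled; the cause was not tested. Of the members, CDKN1A and the 11 other genes named by rule from the lists, those that passed kept their sign in each alternative; the further cyclins and CDKs below and COL1A1 were not followed through the alternatives. With the replicate block 18 members were called (CCNE2 and TFDP1 were added) and 3537 genes in all. Libraries share only a number: the deviations from their group means correlated with -0.01, 0.23 and 0.09 for numbers 1, 2 and 3. Few counts per library limit E2F5, LIN37, CDKN1C, CCNE1 and CDKN2B. For LIN37, the part of the gene that shares its 3ʹ end in these low counts was not tested.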

Other observations

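Cyclins and CDKs outside the G1/S set were read from 33 further symbols, a list made after the data were seen. Of the 28 tested, 5 were higher and 2 lower with Dox, with a median log2 fold change of 0.22. The share called, 25%, was at the background of 25.5% of all genes tested, so the genes below are values and not a result about the list. CDK5, an atypical kinase known from neurons, rose by 0.77 on the log2 scale (adjusted p = 0.000366, edgeR's quasi-likelihood test), and CCNL2 and CDK11A, a cyclin and a kinase of splicing, rose by 0.67 and 0.79 (adjusted p = 0.00297 and 0.0149, same test). Their paralogs CCNL1 and CDK11B had log2 fold changes of 0.11 and 0.25 and did not pass. CCNO rose from a mean of 2.503 to 7.29 CPM (adjusted p = 0.00238, edgeR's quasi-likelihood test). CCNF, the substrate receptor of a ubiquitin ligase in G2, had a log2 fold change of -0.98 (adjusted p = 0.000508, same test), while the transcriptional partners CCNT1 and CDK12 had -0.02 and -0.10 and did not pass.

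Across the 9332 tested genes with a listed promoter, 436 hold an E2F word in the 250 bases before the start. Of these, 18.6% were lower and 7.57% higher with Dox, against 13.7% and 12.2% of the 8896 without such a word. Where the nearest word starts within 100 bases of the start, 22.6% of 168 genes were lower, and where it lies farther, 16% of 268. Among the 418 genes with a word that are in no list used here, 16% were lower and 7.89% higher. The CHR word is in 756 promoters, of which 19.7% were lower and 12% higher, against 13.4% and 12% of the other 8576. Among the 737 with the word that are in no list used here, 17.9% were lower and 12.3% higher. These shares are descriptions of genes that share libraries and base composition, and were not tested.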
